A study of Homo sapiens and Mus musculus with 7 samples.

Results

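Genes of hepatic amino acid and urea metabolism were examined in cells and livers with and without Fas (CD95), the death receptor for Fas ligand. The set was a fixed list of 43 genes in 9 role groups, and a gene was a member when a probe set carrying only its symbol was present in both the human and the mouse array table, ignoring case. This held for 39 of the 43 genes, out of 13637 symbols found in both tables. GPT2 and SARDH had such probe sets in the mouse table only, and GLS2 and SDS were not analysed here. The question was whether CDO1, BHMT and HAL, which an earlier reading of these arrays had placed among the most increased genes of HepG2 cells with FAS knockdown, stood alone or moved with the rest of their pathways. Their own differences in HepG2 are therefore a description.

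The liver clears surplus amino acids. Transaminases and glutamate dehydrogenase pass their nitrogen to the urea cycle, in which carbamoyl phosphate, ornithine and aspartate are turned into arginine and then urea, largely in hepatocytes around the portal vein. Methionine is activated to S-adenosylmethionine by MAT1A, GNMT uses up the surplus, AHCY releases homocysteine, and homocysteine is either methylated back to methionine by BHMT with betaine or sent by CBS and CTH to cysteine, which CDO1 oxidises on the way to taurine. Histidine is opened by HAL and carried by UROC1, AMDHD1 and FTCD to glutamate and folate-bound one-carbon units. Many of these enzymes mark mature hepatocytes and are reduced in liver cancer lines.

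Total RNA of 7 samples was measured on Affymetrix arrays, 5 human and 2 mouse, with 1 array in each group. The human arrays came from HepG2, a liver cancer line, with the empty lentiviral vector pLKO or with the FAS hairpin shRNA6, and from HeyA8, an ovarian cancer line, with pLKO, shRNA4 or shRNA6. All 5 cell samples thus carried a lentiviral construct, and the knockdowns were stable. The mouse arrays came from liver of wild type and of Fas knock-out male C57/BL6 mice aged 2 months. Whether a cell sample was a clone or a pool, whether a liver RNA came from 1 animal or several, and which part of Fas the knockout removed is not stated in the labels. With 1 array per group a difference within the HepG2 or the mouse pair has no replicate check and no p-value, and precision is limited by how few arrays there are.

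The values were MAS5 signals on a linear scale, with array medians between 57.8 and 79.9. A difference is given as log2 of the ratio of signal plus a pseudocount, 12.6 in human and 20.6 in mouse, and this scale shrinks the ratios of weak signals. Genes counted as kept in a pair where 1 or both arrays lay above the median of that array, and as different at 2-fold or more. The most intense FAS probe set kept 58.1% of its control signal in HepG2 with shRNA6, and mouse Fas kept 30.3%. The HepG2 arrays held hepatocyte markers, with all 9 measured ones above the array median, and so did the livers, with 7 of 7. Signals of different probe sets are not comparable as levels, so each gene is compared only with itself.

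In HepG2 cells 5 members were at least 2-fold higher with FAS shRNA6 than with pLKO, and none was lower by that much. They were CDO1, BHMT, GNMT and MAT1A of methionine and cysteine metabolism and HAL of histidine breakdown. By this count CDO1 and BHMT were joined by GNMT and MAT1A of their own role group, while HAL stood alone in histidine breakdown. The other 28 kept members stayed below 2-fold by the probe set chosen for each gene. In all 33 of 39 members were kept, each above the median on both HepG2 arrays, so no member was kept through 1 array alone. Of all 12167 genes kept, 2.65% were higher by 2-fold or more and 2.56% were lower by as much. Among the 10909 genes above the median on both arrays, as these members were, those shares were 0.504% and 0.596%. Ranked from the highest log2 ratio in those 10909 genes, CDO1 stood at place 3, BHMT at 5, GNMT at 6, HAL at 9 and MAT1A at 51. Over all 33 kept members 27 were above 0 and the median log2 ratio was 0.28, a tally that includes CDO1, BHMT and HAL, which were picked for their increase in this pair. Without these 3 genes 2 of 30, GNMT and MAT1A, were at least 2-fold higher and none was lower by as much. Of the same 30, 24 were above 0, against 48.3% of all genes, and the median was 0.24 against -0.01. The count of 5 and the places 3, 5 and 9 include the picked genes and are a description.

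**Figure D1:**
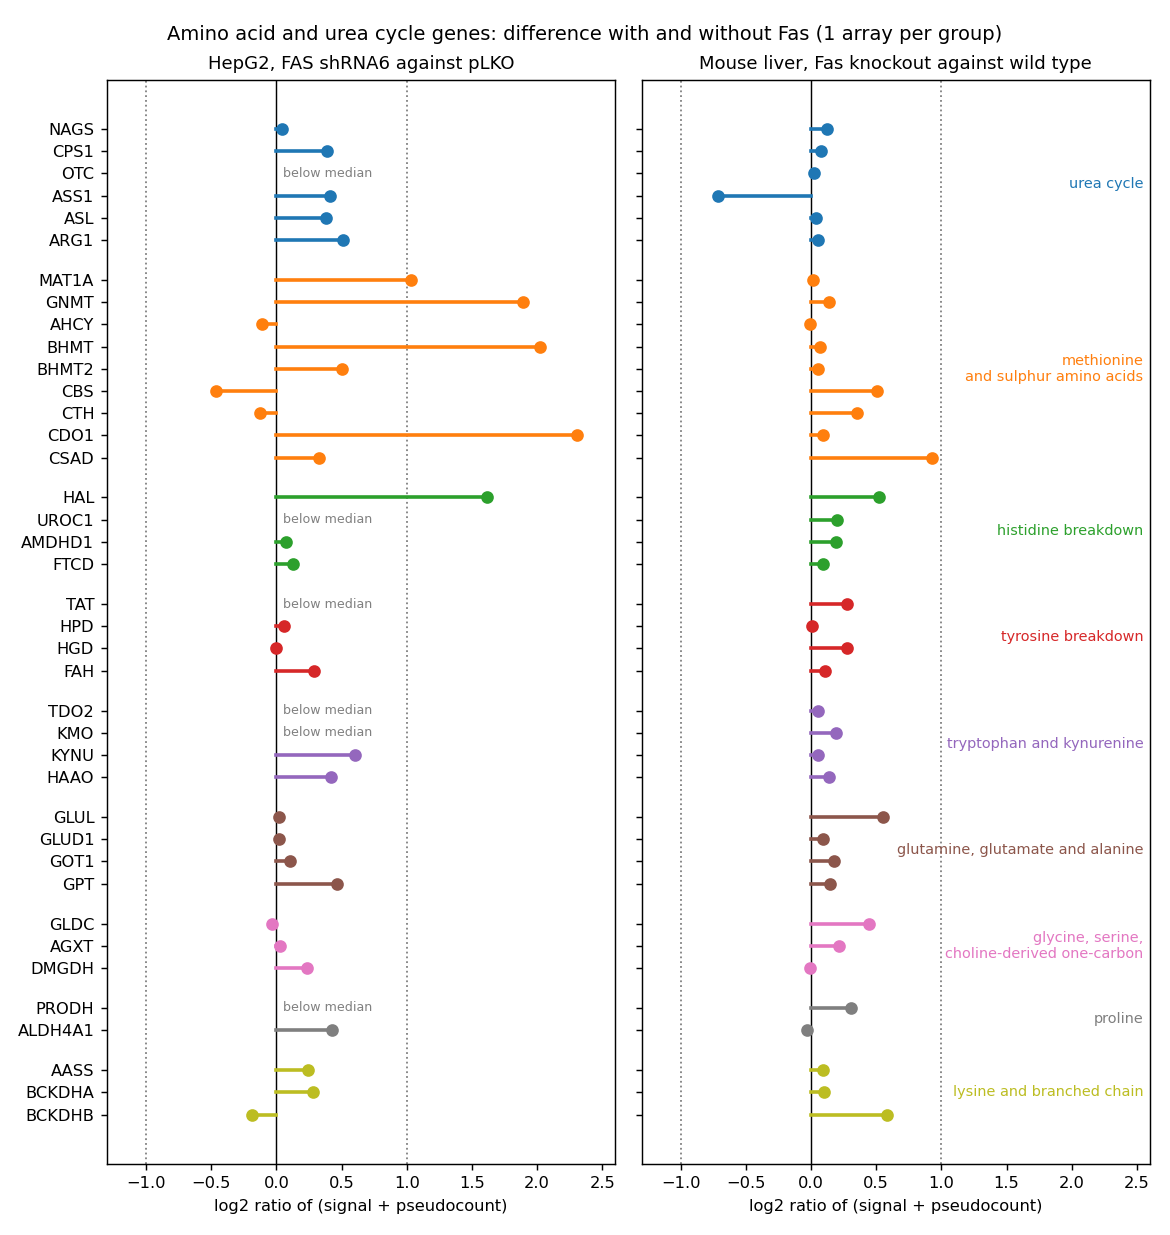
Log2 ratio of every member in the HepG2 pair (left) and the mouse liver pair (right), 1 array per group, coloured by role group; dotted lines mark 2-fold and members below the array median on both arrays are marked as such. In HepG2 CDO1, BHMT, GNMT, HAL and MAT1A lie past the 2-fold line, and in mouse liver no member does.

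CDO1, cysteine dioxygenase, was at a signal of 106 with pLKO and 573 with shRNA6 in HepG2, and at 40.2, 22.1 and 69.4 in HeyA8 with pLKO, shRNA4 and shRNA6. The shRNA6 array of HepG2 was thus the highest of the 5 by a wide margin, a log2 ratio of 2.31 to its control. The other CDO1 probe set gave 63.3 and 147, a log2 ratio of 1.07. BHMT, betaine-homocysteine methyltransferase, was at 90.4 and 407 in HepG2 and between 2.49 and 3.29 in HeyA8, where it lay far below the array medians. Its log2 ratio in HepG2 was 2.03. GNMT, glycine N-methyltransferase, showed the same picture, with 71.9 and 301 in HepG2 and between 2.45 and 3.57 in HeyA8, and a log2 ratio of 1.89. MAT1A, the liver form of methionine adenosyltransferase, was at 1263 with pLKO and 2593 with shRNA6, and between 3.49 and 34.7 in HeyA8. Its log2 ratio of 1.03 was just past the 2-fold line, and it was 0.92 when arrays were scaled to equal medians. BHMT, GNMT and MAT1A had 1 probe set each, so no second one bears on them.

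The rest of the methionine and sulphur group stayed below 2-fold. BHMT2, which methylates homocysteine from S-methylmethionine and is the direct genomic neighbour of BHMT, was at 1681 and 2390 in HepG2, a log2 ratio of 0.50, and its other kept probe sets gave 0.53 and 0.54. Its paralogue BHMT was higher by far more on the same pair of arrays. AHCY, which splits S-adenosylhomocysteine, was at 10863 and 10072, a log2 ratio of -0.11. CBS, which joins homocysteine to serine, was at 1040 and 751, the lowest kept member with a log2 ratio of -0.46, and its other kept probe set gave -0.18. CTH, which releases cysteine from cystathionine, was at 2060 and 1884, a log2 ratio of -0.13, and its other kept probe set gave -0.32. CSAD, which acts after CDO1 in taurine synthesis, was at 290 and 367, a log2 ratio of 0.33. Over the whole group of 9 members 4 were at least 2-fold higher, 6 were above 0 and the median was 0.50. The higher genes were thus those of S-adenosylmethionine formation and use, of remethylation with betaine and of cysteine oxidation, while both transsulfuration enzymes had log2 ratios below 0.

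In histidine breakdown HAL alone was past 2-fold. HAL, histidine ammonia-lyase, was at 156 with pLKO and 503 with shRNA6 in HepG2 and at most 10.7 in HeyA8, and its log2 ratio in HepG2 was 1.61. Its other kept probe set gave 116 and 166, a log2 ratio of 0.48, so the probe sets disagreed in size, and HAL was below 2-fold when the median over its probe sets was used. AMDHD1, the third enzyme of the path and the next protein-coding gene to HAL on chromosome 12, was at 768 and 809, a log2 ratio of 0.08. FTCD, the last enzyme, was at 87.7 and 97.2, a log2 ratio of 0.13, and its cross-hybridising probe sets gave between -0.09 and 0.23. UROC1, the second enzyme, was at 3.04 and 7.33, below the median on all human arrays, and has no ratio. Of the enzymes after HAL, AMDHD1 and FTCD thus stayed near 0, and nothing can be said of UROC1.

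**Figure D2:**
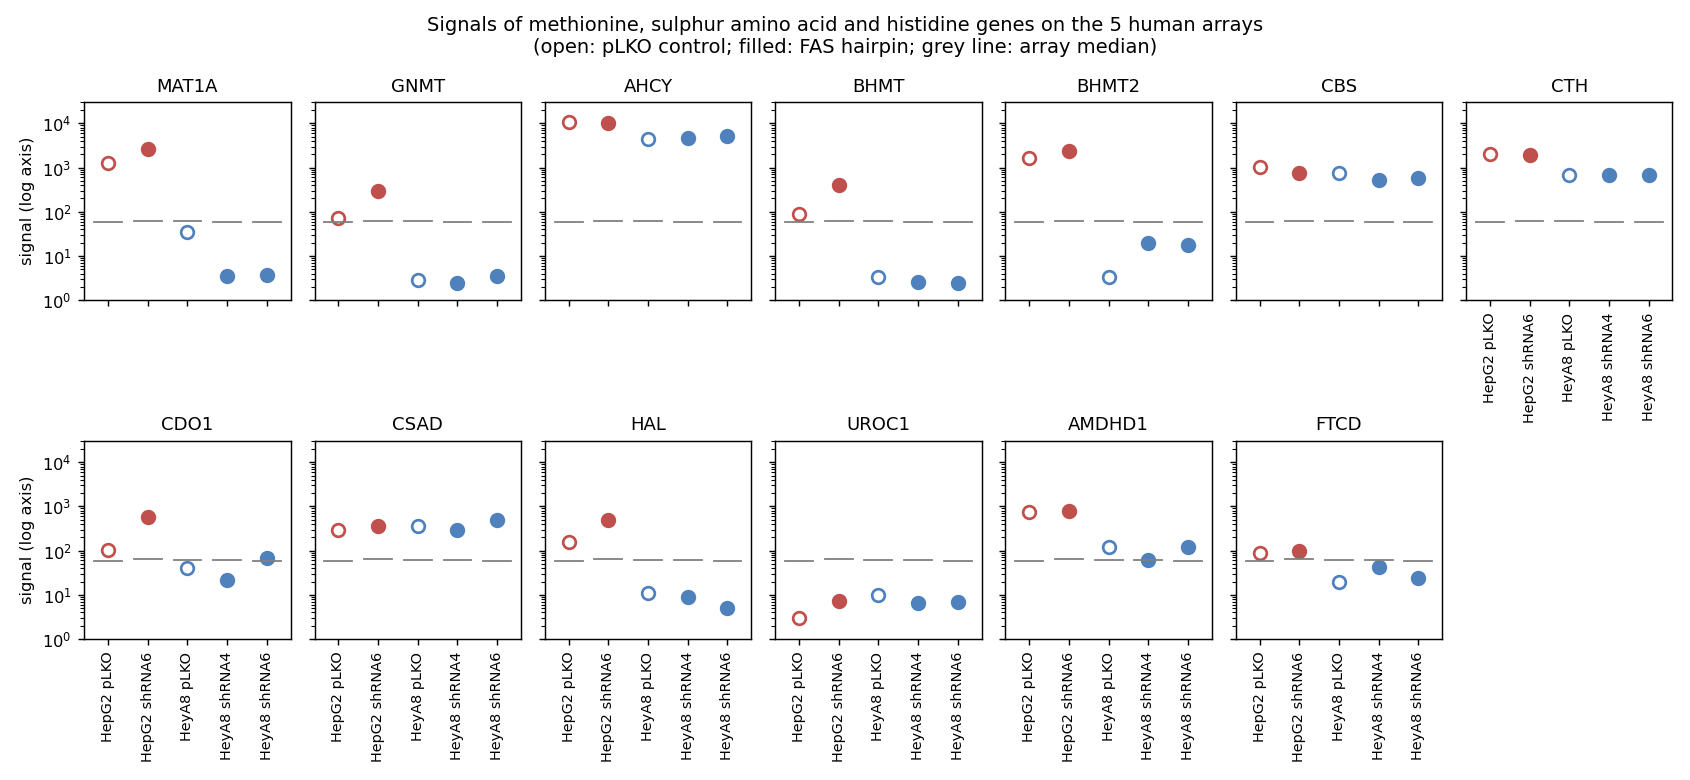
Signal (log axis) of the methionine, sulphur amino acid and histidine genes on the 5 human arrays, 1 point per array, red for HepG2 and blue for HeyA8, open for pLKO and filled for a FAS hairpin, with grey lines at the array medians. CDO1, BHMT, GNMT, HAL and MAT1A are higher with shRNA6 in HepG2, while AHCY, CBS and CTH are slightly lower.

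The urea cycle showed no member past 2-fold, but its 5 kept members were all above 0, with a median log2 ratio of 0.39. ARG1, the arginase that releases urea, was at 183 and 267, a log2 ratio of 0.51. ASS1, argininosuccinate synthase, was at 2901 and 3858, a log2 ratio of 0.41, and ASL, which splits its product, at 2022 and 2635, a log2 ratio of 0.38. CPS1, which makes carbamoyl phosphate, was at 881 and 1159, a log2 ratio of 0.39, with 0.33 from its other probe set. NAGS, which makes the activator of CPS1, was at 178 and 184, a log2 ratio of 0.04. OTC, which makes citrulline, was at 4.79 and 19.7, below the median, in HepG2 and is not counted. ARG1, ASS1, ASL and CPS1 hence lay close together, between 0.38 and 0.51, and about the size of BHMT2.

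Outside these groups no kept member reached 2-fold by its chosen probe set, while second probe sets of FAH and AGXT did. The largest difference in the tryptophan group was that of KYNU, kynureninase, at 3266 and 4957, a log2 ratio of 0.60, with 0.74 and 0.70 from its other kept probe sets. ALDH4A1, which completes proline breakdown, was at 1326 and 1791, a log2 ratio of 0.43. FAH, the last enzyme of tyrosine breakdown, was at 1908 and 2335, a log2 ratio of 0.29. Its other kept probe set gave 88.3 and 197, a log2 ratio of 1.05, so the probe sets of FAH disagreed in size, and their median was 0.67. HPD and HGD, which act before it, were at 0.06 and -0.00. Glutamine, glutamate and alanine genes lay between 0.02 for GLUL, glutamine synthetase (11445 and 11584; -0.07, 0.00 and 0.57 from its other kept probe sets), and 0.46 for GPT, alanine transaminase, whose single probe set is of the cross-hybridising kind. Glycine and choline-derived one-carbon genes lay between -0.03 for GLDC, a subunit of the glycine cleavage system (6888 and 6730), and 0.23 for DMGDH, which follows BHMT in choline breakdown and is the direct genomic neighbour of BHMT2. AGXT, which converts glyoxylate to glycine, was at 291 and 298 (0.03), but a second kept probe set gave 55.4, below the array median, and 193, a log2 ratio of 1.60, and the remaining one gave 0.14. Lysine and branched chain genes lay between -0.19 for BCKDHB, a subunit of the branched chain dehydrogenase (496 and 435), and 0.28 for BCKDHA. By their chosen probe sets the 21 kept members outside the sulphur and histidine groups had a median of 0.24, and 18 of them were above 0. The chosen probe sets of TAT, TDO2, KMO and PRODH were below the median on both HepG2 arrays, as those of OTC and UROC1 were. A cross-hybridising TAT probe set was above it, at 135 and 139 (0.03).

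The differences depended on scale and on signal in a few places. With arrays scaled to equal medians the all-gene median went from -0.01 to -0.12, which turned 7 members with log2 ratios of 0.10 or less, so that 20 of 33 were above 0. Relative to the median of all genes, 28 members, CDO1, BHMT and HAL included, were higher before and after that scaling and after quantile normalization. The 4 dimmer called members, GNMT, BHMT, CDO1 and HAL, had control signals between 71.9 and 156. In that range 1206 genes were above the median on both arrays, of which 1.91% were higher by 2-fold or more. The range held 6 members, the others being FTCD and DMGDH. It was set by the control signals of the 4 called members themselves, so their share in it is not a result. None of the 1206 genes was lower by 2-fold or more. From most of this range a gene lower by that much would not have stayed above the median with shRNA6.

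**Figure D3:**
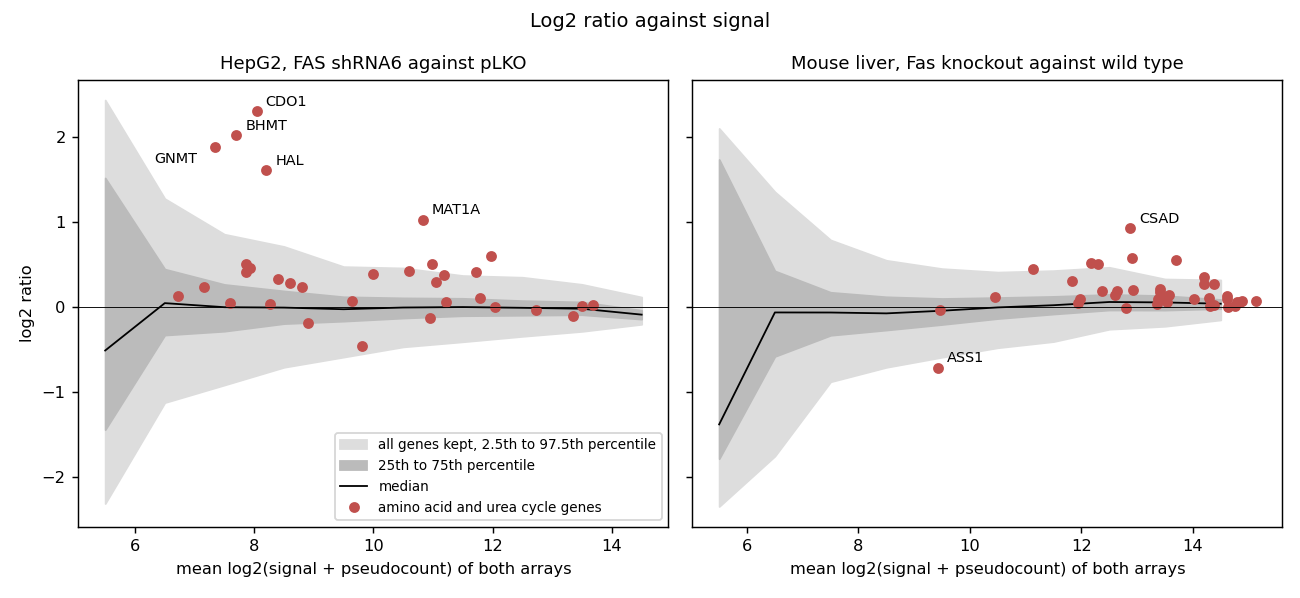
Log2 ratio against the mean log2 signal of both arrays in the HepG2 pair (left) and the mouse liver pair (right), with members as red points over bands holding the middle 50% and 95% of all genes kept, in bins of 1 log2 unit. The labelled genes lie outside the wider band, namely CDO1, BHMT, GNMT, HAL and MAT1A above it in HepG2 and CSAD above and ASS1 below it in mouse liver. By the limits of their bins unlabelled members lie above it too. These are BHMT2, KYNU, ASS1 and ASL in HepG2 and HAL, CBS, CTH, GLUL, BCKDHB and GLDC in mouse liver.

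Other genes of the same pathways, 79 genes in 8 lists without the members, stayed closer to 0 in HepG2. Of 66 kept genes none was 2-fold higher or lower, 35 were above 0 and the median was 0.01. They included 6 kept partners of the urea cycle, such as its mitochondrial carriers, all with log2 ratios below 0 (median -0.11), and 16 genes of methionine, choline and glutathione metabolism (median 0.01). Of 12 kept hepatocyte transcription factors and regulators none reached 2-fold, 8 were above 0 and the median was 0.13. Of 9 kept hepatocyte secretory markers 2 were above 0, with a median of -0.05, and 1 of them, the fibrinogen chain FGB, was past 2-fold higher, at 5792 and 12105 (1.06). Most of these markers had signals above 10000 on both HepG2 arrays. Of all 425 genes that bright 29.6% were above 0, with a median of -0.05, so the markers lay near their background. Genes known from the periportal zone had 7 of 8 above 0, of which 4 are members. The list held 1 further gene past 2-fold, PCK1, the entry enzyme of gluconeogenesis, at 138 with shRNA6 and 13.5 with pLKO, where it lay below the median. Pericentral genes had 4 of 9 above 0 and a median of -0.19. Cholangiocyte markers, which HepG2 also expresses, were below 0 in 4 of 5 and stellate and fibroblast markers in 3 of 4 kept genes. Past 2-fold lower were the keratin KRT7 (65.4 and 15.4), the collagen COL1A1 (820.4 and 144.8) and, from the markers of mesenchymal lines, the filament VIM (87.2 and 26.1). KRT7 and VIM were kept through the pLKO array alone. The part of these other genes in the members' difference was not tested.

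The promoters of the 5 genes past 2-fold are shown to see whether they look alike, since these genes moved the same way. Each runs from 250 bases before to 50 bases after the annotated start in RefSeq (GRCh38.p14), 5′ to 3′ on the gene's strand, and capitals mark the CpG dinucleotides.
CDO1, chr5:115816610-115816909, minus strand: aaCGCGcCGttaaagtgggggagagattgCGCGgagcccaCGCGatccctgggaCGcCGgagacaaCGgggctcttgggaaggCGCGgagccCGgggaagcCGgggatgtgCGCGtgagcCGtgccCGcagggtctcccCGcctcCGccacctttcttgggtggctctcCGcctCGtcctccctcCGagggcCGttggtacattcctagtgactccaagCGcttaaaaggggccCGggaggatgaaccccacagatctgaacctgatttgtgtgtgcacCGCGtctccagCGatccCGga
BHMT, chr5:79111559-79111858, plus strand: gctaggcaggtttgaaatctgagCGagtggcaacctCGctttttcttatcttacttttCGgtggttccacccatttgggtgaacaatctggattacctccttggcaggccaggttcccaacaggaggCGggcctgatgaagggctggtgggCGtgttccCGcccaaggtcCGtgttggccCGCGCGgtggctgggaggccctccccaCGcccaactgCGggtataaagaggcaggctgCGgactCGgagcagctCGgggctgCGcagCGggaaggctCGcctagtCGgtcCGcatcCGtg
GNMT, chr6:42960504-42960803, plus strand: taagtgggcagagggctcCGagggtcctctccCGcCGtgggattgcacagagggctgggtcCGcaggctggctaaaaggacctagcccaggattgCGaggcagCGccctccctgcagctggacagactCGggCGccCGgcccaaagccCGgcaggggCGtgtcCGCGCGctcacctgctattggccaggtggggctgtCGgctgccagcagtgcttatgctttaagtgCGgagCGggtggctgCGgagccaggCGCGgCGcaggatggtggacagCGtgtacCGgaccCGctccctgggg
MAT1A, chr10:80289609-80289908, minus strand: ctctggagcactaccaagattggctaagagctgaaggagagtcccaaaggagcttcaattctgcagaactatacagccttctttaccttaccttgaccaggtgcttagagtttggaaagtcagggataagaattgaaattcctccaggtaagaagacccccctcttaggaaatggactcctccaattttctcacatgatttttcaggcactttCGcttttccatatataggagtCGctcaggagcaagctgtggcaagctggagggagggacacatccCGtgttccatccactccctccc
HAL, chr12:95996295-95996594, minus strand: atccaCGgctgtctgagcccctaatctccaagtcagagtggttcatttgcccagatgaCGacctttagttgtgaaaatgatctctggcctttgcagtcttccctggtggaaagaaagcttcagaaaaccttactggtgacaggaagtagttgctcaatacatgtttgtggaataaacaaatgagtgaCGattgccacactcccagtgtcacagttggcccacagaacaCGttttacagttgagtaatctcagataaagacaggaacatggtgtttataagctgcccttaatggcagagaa
They were unlike in composition. CDO1 held 30 CpGs, GNMT 24 and BHMT 21, whereas HAL held 4 and MAT1A 3, beside a median of 14 over 35116 RefSeq promoters. Their GC content was 66.0%, 69.3%, 62.3%, 44.7% and 48.0% in that order. The TATA box TATAAA stood 29 bases before the start of BHMT, and on the opposite strand 22 bases after the start of HAL. HAL also held the C/EBP motif TTGCNNAA, 101 bases before its start. With both strands searched, TATAAA was in 11.5% of all promoters and in 8 of 46 promoters of the 35 members that matched by symbol (17.4%), and TTGCNNAA in 10.5% and in 5 of 46 (10.9%). Neither CDO1, GNMT nor MAT1A held any of the motifs searched in this window, the others being the HNF4 core CAAAGTCCA (0.384% of all promoters), the HNF1 palindrome (0.0057%), the ATF4 type motif TGATGNAA (3.62%) and the cAMP element TGACGTCA (1.85%). A match is a description only, and so is its absence from this window.

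HeyA8 served as a line without hepatic identity. Of the 39 members 27 were higher in HepG2 than in HeyA8 and 2 were lower by limma at an adjusted p of 0.05, 4 did not pass the test and 6 were below the median on all human arrays by their chosen probe sets. Over all 13936 genes tested, 30.0% were higher and 28.0% lower in HepG2. Of the 27, 12 were above the median on HepG2 arrays alone and so had to differ to be tested. The other 21 tested members, above the median on at least 1 HeyA8 array, held 15 higher and both lower ones. The fit used 2 HepG2 and 3 HeyA8 arrays with the knockdown as a term. Arrays of a line differ by construct, and nothing says that they came from separate cultures, so p-values measure only the spread between these samples.

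The 12 members kept through HepG2 arrays alone are given as a description, since their call was fixed by the filter. KYNU had the widest log2 difference, 8.06 ± 0.27 (SE, 5 arrays). Its HeyA8 signals lay between 1.68 and 5.18, under every array median. HGD, homogentisate dioxygenase, was at 7.98 ± 0.25 and HPD, its predecessor, at 7.16 ± 0.28 (SE), whereas FAH and HAAO of the same paths, which HeyA8 also held above the median, were at 1.83 and 1.35. Of the sulphur group BHMT2 was at 6.46 ± 0.27 and MAT1A at 6.23 ± 0.53 (SE), and BHMT and GNMT were kept in the same way. Among the 5 sulphur members above the median in HeyA8 too, AHCY, CBS, CTH and CDO1 were higher in HepG2, and CSAD did not pass (-0.17 ± 0.24, SE). Differences against HeyA8 signals below the array medians depend on the pseudocount. BHMT, for example, was at 3.90 ± 0.61 (SE), and between 2.19 and 5.81 over the alternatives. Without the HepG2 shRNA6 array it was at 2.70 and did not pass (adjusted p of 0.0649 by limma).

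Of the genes above the median in HeyA8 too, GLDC was higher in HepG2 by 4.92 ± 0.17 (SE) and ASS1 by 4.17 ± 0.17 (SE). ASS1 signals in HeyA8 were 175, 162 and 199 with pLKO, shRNA4 and shRNA6, against at least 2901 in HepG2, and the groups did not overlap. NAGS went the other way, at 849, 616 and 680 in HeyA8 and at most 184 in HepG2, lower in HepG2 by 1.93 on the log2 scale (log2 difference -1.93 ± 0.18, SE; adjusted p of 4.07e-05 by limma). In the urea cycle CPS1, ASS1 and ASL were thus higher in HepG2 and the activating enzyme NAGS lower, with ARG1 kept through HepG2 arrays alone. BCKDHB was lower in HepG2 as well (-0.59 ± 0.14, SE), but its other probe set turned the sign. CBS passed at 0.44 ± 0.14 (SE; adjusted p of 0.0256 by limma), although its HepG2 and HeyA8 signals overlapped and the call was lost or reversed under 8 of 15 alternatives. AASS, BCKDHA and GPT did not pass. CDO1 was higher in HepG2 by 2.48 ± 0.59 (SE; adjusted p of 0.0073 by limma), a value that rests on the shRNA6 array: without it the difference was 1.16 and did not pass. Without that array 19 members were higher and 1 lower, the calls lost being those of ASL, BHMT, CBS, CDO1, DMGDH, FTCD, GNMT, HAAO and BCKDHB. Without the HepG2 or the HeyA8 pLKO array 24 were higher, with CBS, DMGDH and FTCD lost each time. A HepG2 array left alone is assumed to vary like the others.

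**Figure D4:**
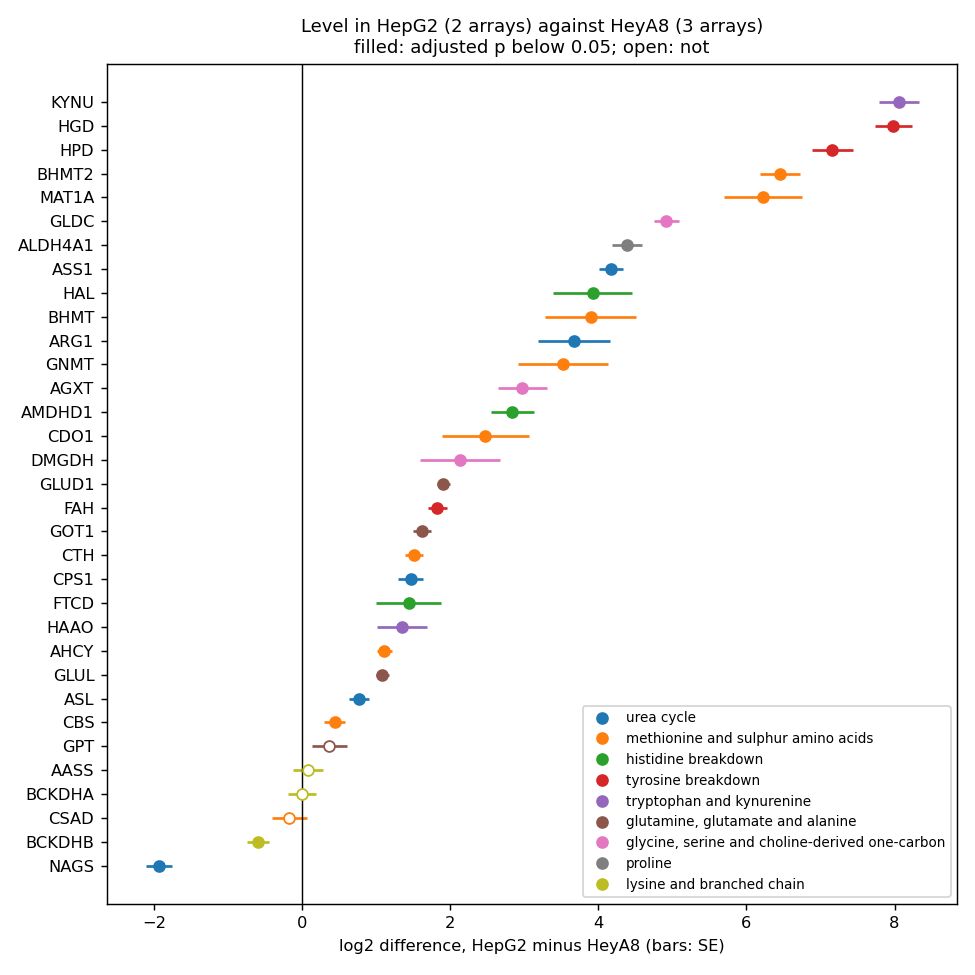
Log2 difference of each tested member, HepG2 (2 arrays) minus HeyA8 (3 arrays), with SE bars, filled where the adjusted p by limma was below 0.05. KYNU, HGD and HPD, kept through HepG2 arrays alone, are farthest to the right, and NAGS and BCKDHB are lower in HepG2.

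FAS knockdown in HeyA8 moved no member by 2-fold by its chosen probe set. A second kept probe set of ALDH4A1 was at 68.5 with pLKO and 20.8 with shRNA6, a log2 ratio of -1.28. It was kept through the pLKO array alone. Of 20 members kept with shRNA4 and 21 kept with shRNA6, 9 were above 0 in each comparison, against 53.4% and 51.2% of all genes, and the medians were -0.02 and -0.03. Of all genes kept, 2.37% were higher and 2.38% lower by 2-fold with shRNA4, and 2.02% and 2.21% with shRNA6. Both comparisons share the HeyA8 control array. BHMT, GNMT, HAL and MAT1A were below the median on all HeyA8 arrays, so nothing can be read there about 4 of the 5 genes. CDO1 was above the median on the shRNA6 array alone, where its log2 ratio was 0.63. CBS, at 758 with pLKO, 515 with shRNA4 and 591 with shRNA6, had log2 ratios of -0.55 and -0.35.

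In mouse liver no member differed by 2-fold between Fas knockout and wild type. All 39 were kept, each above the 75th percentile on both arrays. Of all 12047 genes kept, 1.77% were higher and 2.57% lower by 2-fold, and of the 10630 above the median on both arrays 0.254% and 0.442%. Of the 5 genes past 2-fold in HepG2, 4 had log2 ratios of at most 0.14 here. Cdo1 was at a signal of 24148 in wild type and 25687 in the knockout, a log2 ratio of 0.09. Bhmt was at 34871 and 36615, a log2 ratio of 0.07. Gnmt was at 23751 and 26101 (0.14) and Mat1a at 20198 and 20372 (0.01). Hal had the largest ratio of the 5, at 3828 and 5506, a log2 ratio of 0.52, place 290 from the highest among the 10630 genes, and above the band holding the middle 95% of genes of like signal, which ended at 0.47. The signals of Cdo1, Bhmt, Gnmt and Mat1a were all above 20000, as were those of 10 members in wild type and 14 in the knockout, while the arrays reached 44420 and 51136. Whether signals so near the top of the scale still follow the amount of RNA was not tested.

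The largest mouse differences lay in other members. Csad, the decarboxylase that follows Cdo1 in taurine synthesis, was at 5424 in wild type and 10360 in the knockout, a log2 ratio of 0.93, and it passed 2-fold when arrays were scaled to equal medians (1.02). Among the 10630 genes above the median on both mouse arrays it stood at place 39 from the highest. Ass1 was at 863 and 517, the lowest member with a log2 ratio of -0.72. That value rests on 1 mouse probe set, so no second one bears on it, and its signal was the lowest among the chosen ones of the urea cycle. Of these chosen probe sets only that of Ass1 lay away from 0. Cps1 (29222 and 30803), Otc (21234 and 21578), Asl (10376 and 10626) and Arg1 (27799 and 28907) had log2 ratios between 0.02 and 0.08, and Nags (1318 and 1433) had 0.12. The other kept probe sets of Otc gave -0.01 and 0.25. Bckdhb was at 6222 and 9323 (0.58), and Glul, the pericentral glutamine synthetase, at 11015 and 16122 (0.55), with 0.31 from its other probe set. Cbs was at 4202 and 5961 (0.50), with 0.48 from its other probe set, and Cth at 16603 and 21150 (0.35). Gldc was at 1902 and 2602 (0.45). The transsulfuration enzymes were thus on the higher side in the knockout liver and on the lower side in HepG2 with FAS shRNA6, and Ass1 stood the other way round.

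The remaining members differed little. Bhmt2 (11661 and 12107), Ahcy (25359 and 25271), Hpd and Hgd had log2 ratios between -0.01 and 0.27, but the other kept probe set of Hgd gave -0.33, and the median over both was -0.03. The histidine genes after Hal were at 0.20 for Uroc1 (7276 and 8342), 0.19 for Amdhd1 (4950 and 5653) and 0.09 for Ftcd (10218 and 10914). The kynurenine genes Tdo2, Kmo, Kynu and Haao lay between 0.05 and 0.19, although the other kept probe set of Kynu gave -0.70 and those of Tdo2 0.12 and 0.29. Tat, which starts tyrosine breakdown, was at 19437 and 23556 (0.28), Prodh, which starts that of proline, at 3256 and 4041 (0.31) and Agxt at 10057 and 11653 (0.21). Glud1, Got1, Gpt, Aass and Bckdha lay between 0.09 and 0.18, with -0.04 from the other probe set of Gpt, and Dmgdh was at -0.01. Fah was at 19328 and 20773 (0.10) and Aldh4a1 at 697 and 681 (-0.03). Gpt2 and Sardh, measured in mouse only, were at -0.23 and 0.08. Over the 39 members 35 were above 0, against 47.3% of all genes, and the median was 0.10 against -0.02. Relative to the median of all genes 37 members were higher, and 32 after quantile normalization, where the members' median exceeded that of all genes by 0.07 instead of 0.12.

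Brighter genes in general lay on the same side as this small difference, and most kept leukocyte, endothelial and stellate markers on the other side. Of 974 genes above a signal of 5000 on both mouse arrays 69.0% were above 0, with a median of 0.05, and of the 29 members among them 27 were above 0, with a median of 0.09. The other genes of the same pathways lay like the members, with 48 of 64 above 0 and a median of 0.10. Among them Phgdh, the first enzyme of serine synthesis, was at 210 in wild type and 59.3 in the knockout (-1.53), kept through the wild type array alone. Aldh18a1, of proline synthesis, was at 31.6 and 84.8 (1.01), kept through the knockout array alone. Of the hepatocyte markers 5 of 7 were above 0 (median 0.01), with sums of 222302 and 225443. Leukocyte and Kupffer cell markers were below 0 in 7 of 7 kept genes, with a median of -0.29 and a summed signal of 9011 in wild type and 7353 in the knockout. Endothelial markers were below 0 in 5 of 6, with sums of 10120 and 9673, and stellate and fibroblast markers in 6 of 7, with sums of 19758 and 17268. Of the cholangiocyte markers 3 were kept, Epcam and Sox9 lower and Krt7 higher by 2-fold, and the 4 measured ones had signals between 9.55 and 198. Epcam and Sox9 were kept through the wild type array alone, and Krt7 through the knockout array alone. Of the erythroid markers only Alas2 was kept (1304 and 1822). In liver tissue fewer cells of a type and less RNA per cell cannot be told apart, and the part of the cell mixture in the members' difference was not tested.

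**Figure D5:**
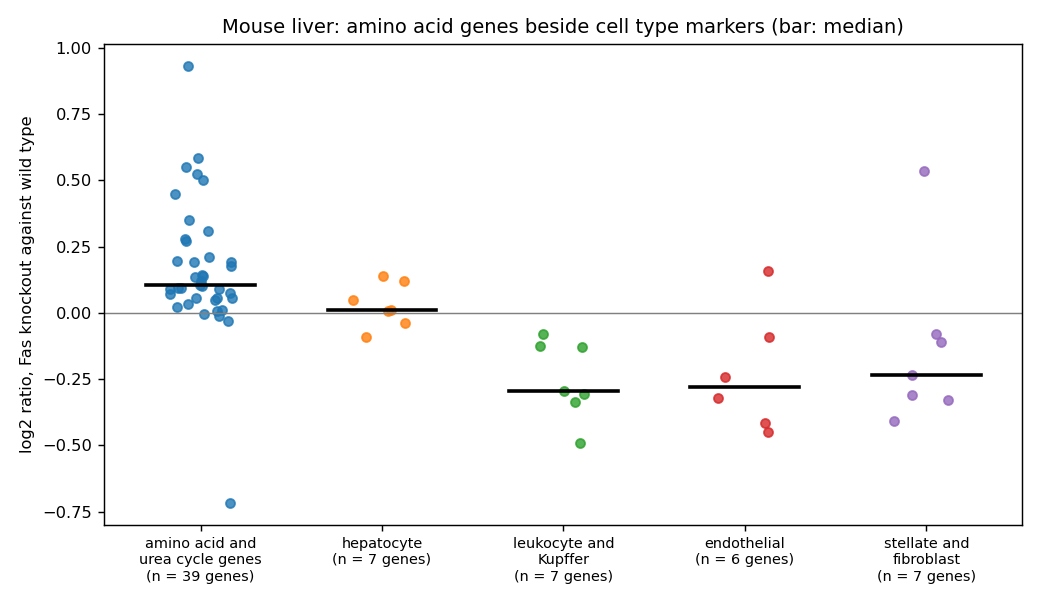
Log2 ratio of each kept gene in mouse liver, Fas knockout against wild type, for the 39 members and for 4 lists of cell type markers, with bars at the medians. The members have a median of 0.10 and hepatocyte markers one of 0.01, whereas leukocyte, endothelial and stellate markers have medians between -0.29 and -0.23.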

How the data were processed

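The deposited signals are linear intensity values. MAS5 is the tool that the submitters' processing notes name for them, without version or settings, and no detection calls were used here. Each array showed a 2% trimmed mean of about 500. Control probe sets (62 human, 64 mouse) were left out. Symbols came from the platform annotation, which can be old: 41091 human and 34945 mouse probe sets had 1 symbol, 1801 and 932 several and 11721 and 9160 none. A gene's probe set was the one of highest mean signal, avoiding cross-hybridising (_x_at) sets.

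Pairs were compared by log2 ratios with the 25th percentile of each table as pseudocount. The cell lines were compared with limma 3.58.1 in R 4.3.3 (cell line and knockdown terms, trended variance, 2 residual degrees of freedom, Benjamini-Hochberg adjustment over 13936 genes), checked on simulated data. Other steps used Python 3.11.15, numpy 2.4.6, pandas 2.3.3 and matplotlib 3.10.9. Promoters came from RefSeq, GRCh38.p14, for human genes.

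The members and gene lists were chosen with earlier results of these data known. Signals of the HepG2 and mouse pairs are given for CDO1, BHMT, HAL, members past 2-fold, the rest of their role groups and the urea cycle. They are also given for the largest difference in each other group, except for KYNU in mouse. HeyA8 signals are given for only some of these genes. Non-members are named only from the lists, at 2-fold or more apart from Alas2. CpG content was added after the data were seen. Alternatives were other pseudocounts, scalings, filters, probe set rules and a 1.5-fold threshold, and for the cell lines no trend, no knockdown term and leaving out each array.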

Additional observations from a re-analysis of the deposited data

Results flagged for a closer look

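ASS1 and CBS stand out because their single arrays lay on opposite sides of 0 in the HepG2 and the mouse liver pair. ASS1 had a log2 ratio of 0.41 in HepG2 with FAS shRNA6 and -0.72 in Fas knockout liver, a difference of 1.13. Each of these ASS1 values rests on 1 probe set, and in mouse its signal was below those of the other urea cycle members. CBS had -0.46 and 0.50, a difference of -0.96. The other kept probe set of CBS gave -0.18 in HepG2, too small to be picked, and 0.48 in mouse. Neither difference was tested, since each rests on 1 array per group, and the size limit used to pick them was set after the values were seen.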

How the results depend on the processing

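No paired analysis was possible because each group held 1 array and the labels number no replicates. In HepG2 between 4 and 6 members were at least 2-fold higher over the alternatives, CDO1 and BHMT each time and GNMT except under the 75th percentile filter, which it did not pass; MAT1A was at 0.92 with equal medians and HAL at 0.48 with the median over probe sets. Over these alternatives between 0.373% and 6.48% of all genes were called higher in HepG2. Without the filter on low values 2 members, PRODH and TDO2, were 2-fold lower in HepG2, beside 4.91% of all genes. In mouse liver 1 member (CSAD) was past 2-fold higher with equal medians, beside 2.07% of all genes. At 1.5-fold 1 was higher (CSAD) and 1 lower (ASS1), beside 4.89% and 7.62% of all genes. The member median stayed between 0.17 and 0.30 in HepG2 and between 0.08 and 0.19 in mouse. In the cell line comparison between 21 and 27 members were higher where each line kept at least 2 arrays, beside 20.3% to 36.9% of all genes. The fewest members were higher without the HepG2 shRNA6 array. The count lower in HepG2 was 1 with the median over all probe sets and 1 with _x_at, _s_at and _a_at sets left out, and 1 or 2 when each array was left out in turn. BCKDHB turned to 0.64 with those sets left out and to 0.0247 with the median over probe sets, and CBS to -0.91 with those sets left out; other probe sets stand for these genes there. Of the recomputed cell line differences 459 kept their call or stayed uncalled, 22 lost the call and 3 called ones reversed. Uncalled differences could change sign within the 459, as that of AASS did, from 0.08 to -0.10 without the HepG2 shRNA6 array. With 1 array per group, small ratios of single genes cannot be told from the spread between arrays.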
